A study of Paeonia lactiflora with 8 samples.

Results

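Among the assembled genes of herbaceous peony (Paeonia lactiflora), 60 of 30177 IDs carried the symbol of a non-A-type cytochrome P450 and are described here. They were chosen by symbol alone, from a list of non-A-type family numbers, and fell in 14 families under 29 symbols (CYP51, CYP72, CYP74, CYP85, CYP86, CYP87, CYP90, CYP94, CYP97, CYP704, CYP707, CYP716, CYP734 and CYP735). No member fell in the gibberellin families CYP88 and CYP714 or the strigolactone families CYP711 and CYP722. This holds for CYP symbols only, and P450s listed under other names were not matched. Gibberellin pathway IDs named KAO1 (comp71048_c0) and KAO2 (comp70980_c0), for example, lie outside the 60. Another 4 IDs whose symbols match were not included. Poly(A) RNA came from 4 organs, each with 2 biological replicates, which makes 8 libraries. Root, leaf and flower were sampled at the blossom period, while fruit was sampled at the period of young fruit. No treatment or genetic change separates the organs, and the labels give neither a cultivar nor the number of plants behind a sample. Fruit differs from the other organs in both organ and period, and these cannot be told apart.

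Plant cytochromes P450 are haem enzymes, mostly bound to the endoplasmic reticulum, that insert oxygen into small molecules with electrons from a P450 reductase. The non-A-type families are an old and diverse set whose known members act on sterols, carotenoids, fatty acids, terpenoids and hormones, whereas the A-type families mostly make phenylpropanoids and other specialised products. In the hormone pathways some members build the active molecule and others, such as CYP707A for abscisic acid and CYP734A for brassinosteroids, break it down. Roles given here come from other plants through the symbol. The deposited KEGG description named no specific family for 26 members, matched the symbol for 15 and named another family for 19. All 6 CYP716B2 IDs and the CYP707A1 ID, for example, were described as family 26, a family known from animals, and 4 of the CYP734A1 IDs as cytokinin hydroxylases.

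The 60 members were 201 to 2143 bases long, with a median of 1056. Of them 27 were at least 1400 bases, about the length a whole P450 needs, and 21 were under 600 and so are fragments. Each of 3 components of the assembly, comp12872, comp11707 and comp13388, gave 2 members, and reads of near-identical IDs may be split between them, so single members are uncertain in this respect. Levels are the authors' TPM, a unit that corrects for transcript length, and are given for replicate 1 and then replicate 2. Organ differences come from one quasi-likelihood fit to the estimated counts of all IDs. Each organ was set against the mean of the other 3, and a call needed a Benjamini-Hochberg adjusted p under 0.05 over all IDs tested and a log2 fold change of at least 1 in size. Log2 fold changes are given ± an approximate SE, with 2 libraries per organ. This SE is the size of the fold divided by the square root of the test's F statistic, and was not estimated directly. All contrasts share libraries, and p-values measure only the spread between these samples.

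**Figure D1:**
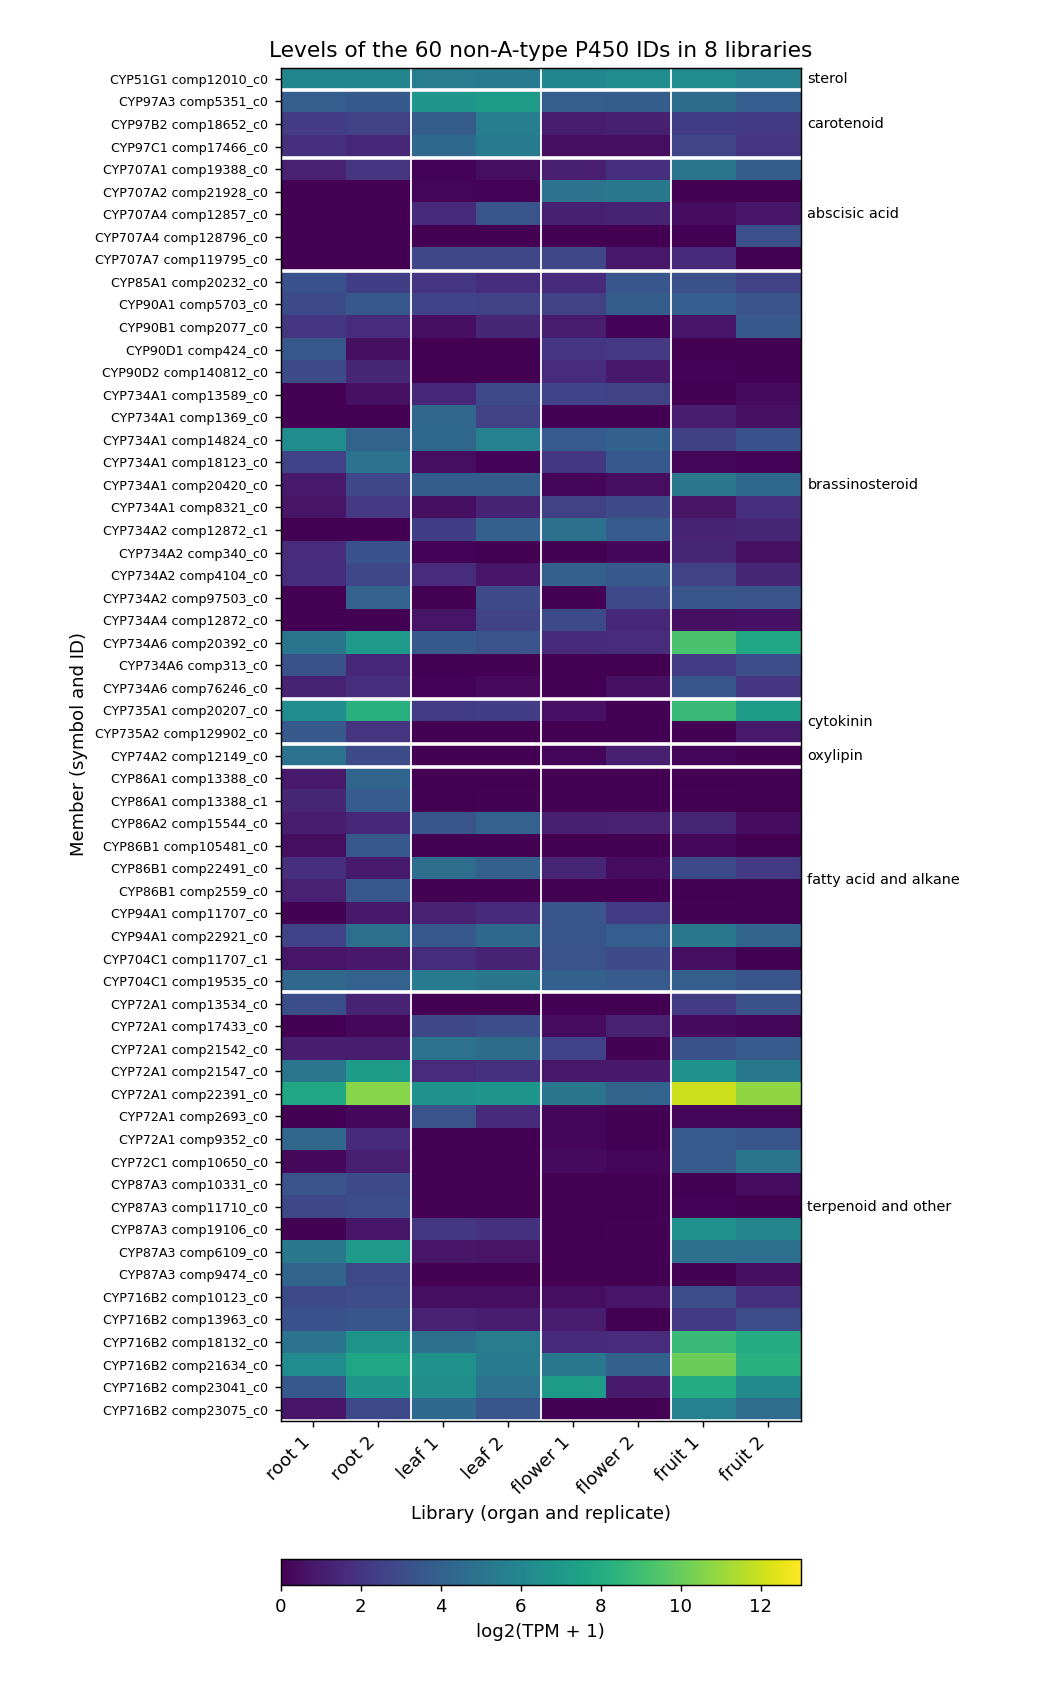
Levels of all 60 members as log2(TPM + 1), one row per member and one column per library, with organs in pairs of columns and members grouped by class. The 3 carotenoid members are brightest in leaf, and CYP72A1 comp22391_c0 is the brightest row, at 4167 and 1820 TPM in fruit.

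The libraries held 30399492 to 49421130 counts and replicates correlated across IDs at 0.874 (root) to 0.914 (fruit), Pearson's r. The summed TPM of the members was 886.1 and 3066 in root, 7617 and 3213 in fruit, 757.7 and 764.0 in leaf, and 464.8 and 313.6 in flower. In root 35 members were higher in replicate 2 and 18 in replicate 1, and in fruit 40 were higher in replicate 1 and 16 in replicate 2. IDs named TAR1-A, which are not P450s, took 1.77% to 41.4% of a library's counts, most in flower replicate 2, and lower the TPM of all other IDs in proportion. Organ labels matched their markers for leaf (193800 and 155300 summed TPM of 49 green tissue IDs, at most 17820 elsewhere) and flower (1307 and 1353 TPM of 4 petal and stamen IDs, at most 10 elsewhere), with 2 green tissue IDs at 0 in each leaf library. Pollen markers (5 IDs) did not separate flower by sum, at 183.9 and 215.8 TPM there and 109.5 to 230.5 TPM in the other libraries. In each of those other libraries 2 pollen IDs were at 0, against 0 IDs in flower. Seed markers (7 IDs) summed to 86.3 and 6137 TPM in fruit replicates 1 and 2 and to 42.9 to 101.1 TPM in the other libraries. The 53 markers for suberising or lignifying root summed to 3642 and 2493 TPM in root and also to 3071 and 1817 TPM in fruit, so they did not separate these organs.

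Of the 60 members, 56 had enough counts to be tested, and 38 of these (67.9%) differed among the 4 organs, against 29.3% of all IDs tested. In root 15 members were higher and 3 lower than the mean of the other organs, beside 7.05% and 5.47% of all IDs. In leaf 12 were higher and 5 lower, beside 10.4% and 4.06%. In flower 9 were higher and 11 lower, beside 13.6% and 9.22%. In fruit 12 were higher and 1 lower, beside 4.15% and 1.55%. The members' shares called higher were 26.8% in root, 21.4% in leaf and 21.4% in fruit, all above those of all IDs. In flower the share called higher was 16.1%, which was near that of all IDs. The share called lower in flower was 19.6%, above that of all IDs. By mean TPM 21 members were highest in fruit, 18 in root, 12 in leaf and 9 in flower. TPM lacks the fit's scaling between libraries (TMM), so TPM sums and organ ranks by TPM partly reflect scaling. Both flower libraries had the lowest TMM factors, 0.763 for replicate 1 and 0.581 for replicate 2, so TPM understates flower relative to the fit. Other factors ran from 0.92 (leaf replicate 1) to 1.43 (root replicate 2). Without TMM, 12 members were called lower in flower (11 with it), beside 17.1% of all IDs (9.22%). The median log2 fold change of the 56 was -0.25 in root, -0.89 in leaf, -0.92 in flower and 0.58 in fruit. With organs at 0 counts set to a floor of 3 counts, these medians were -0.22, -0.96, -0.76 and -0.17, so the sign for fruit rested on members with no counts, and the medians of all IDs at that floor were 0.07, -0.01, -0.23 and -0.04. Organ-enriched members, which were called higher and were fitted 1 log2 unit or more above every single other organ, numbered 8 in root (4.68% of all IDs were), 9 in leaf (7.73%), 6 in flower (9.94%) and 8 in fruit (2.80%), and 31 together (25.2%). In bulk organs fewer cells of a type and less RNA per cell cannot be told apart.

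Pairs of organs were also compared directly. Fruit was higher than flower for 14 members and lower for 4, beside 6.65% and 8.06% of all IDs. Fruit was higher than leaf for 10 and lower for 6, beside 3.59% and 6.05%. Root was higher than flower for 10 and lower for 4, beside 9.39% and 11.2%, and higher than leaf for 10 and lower for 10, beside 4.45% and 7.92%. Flower was higher than leaf for 7 and lower for 11, beside 9.32% and 10%. Root against fruit gave 2 higher and 1 lower, beside 0.816% and 1.24%, and these 3 were CYP734A1 comp18123_c0, CYP87A3 comp11710_c0 and, lower in root, CYP87A3 comp19106_c0.

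**Figure D2:**
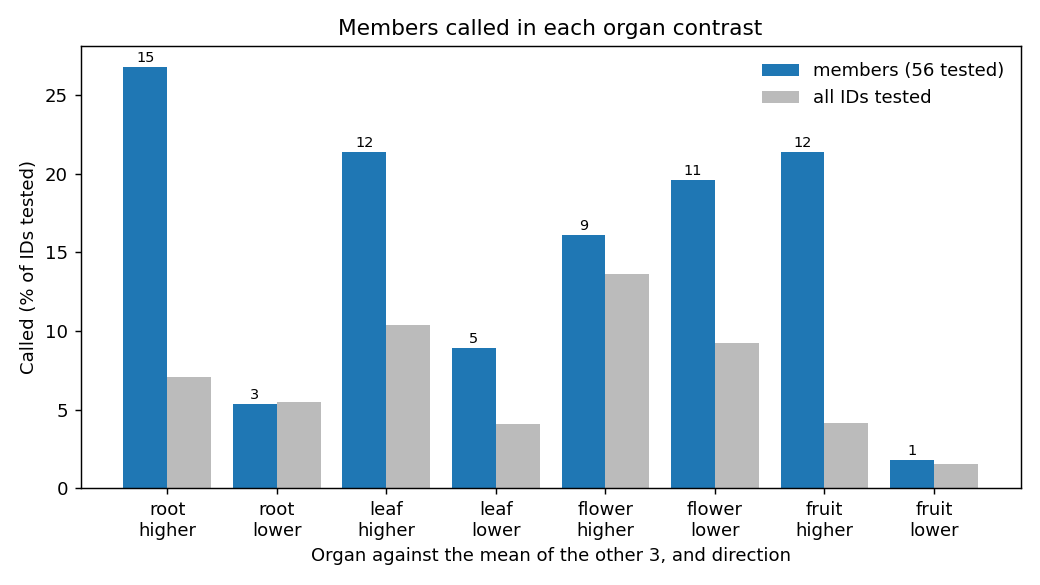
Percent of tested members (blue, with the number called above each bar) and of all tested IDs (grey) called higher or lower in each organ against the mean of the other 3. Members exceed all IDs most in root (15 higher) and fruit (12 higher), and 11 members were lower in flower.

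The counts depended on single libraries. When a library was left out, the shares of all IDs called fell as well, so the fall was not particular to the members. Leaving out each of the 8 libraries in turn took the number that differed among organs to between 16 and 31, those higher in root to 5 to 8 and those higher in fruit to 5 to 11. Of the 68 calls of a member in an organ, 16 were kept in all 8 of these fits. They concern CYP97A3, CYP97B2, CYP97C1 and CYP86A2 in leaf, CYP97C1, CYP707A2, CYP735A1, CYP716B2 comp18132_c0 and CYP87A3 comp6109_c0 in flower, CYP734A6 comp20392_c0, CYP716B2 comp18132_c0, CYP87A3 comp6109_c0 and comp19106_c0 in fruit, and CYP72A1 comp21547_c0, CYP87A3 comp6109_c0 and comp11710_c0 in root. Each of the other calls was lost in at least 1 of these fits, and the libraries concerned are given with the calls described.

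The sterol class had a single member, which was present in all organs. CYP51G1 (comp12010_c0) is the demethylase that removes a methyl group from a sterol precursor in every plant cell. Its level was 61.6 and 61.1 TPM in root, 77.9 and 53.0 in fruit, 45.4 and 41.8 in leaf, and 62.0 and 78.7 in flower. It did not pass the test over the 4 organs (adjusted p = 0.0698). Flower stood 0.998 ± 0.24 above the mean of the other organs (adjusted p = 0.0275), just short of the fold needed, and 1.17 ± 0.32 above leaf (adjusted p = 0.0445). It passed in flower without root replicate 1, at 1.06. Among 8 other sterol pathway IDs tested, 2 were higher in flower and 1 was lower in root, beside 13.6% and 5.47% of all IDs. SMT2 (comp16099_c0), a sterol methyltransferase, averaged 332 ± 28.8 TPM in flower, against 43.8 ± 1.17 in root, 49.6 ± 11.5 in leaf and 71.3 ± 25.6 in fruit (SD, n = 2 each; log2 fold change 3.30 ± 0.28, adjusted p = 0.00102). SMT1 (comp4061_c0), which acts earlier in the same branch, was also higher in flower (2.39 ± 0.40, adjusted p = 0.00789).

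All 3 carotenoid members were higher in leaf. CYP97A3 and CYP97C1 are the ring hydroxylases that make lutein, the main xanthophyll of light-harvesting complexes, and CYP97B is a related family. CYP97A3 (comp5351_c0) had 111.0 and 132.8 TPM in leaf, against 14.1 and 11.9 in root, 14.1 and 13.3 in flower, and 23.2 and 13.96 in fruit. Both leaf libraries were far above the 6 others (3.04 ± 0.25, adjusted p = 0.000595). CYP97C1 (comp17466_c0) had 21.0 and 41.2 TPM in leaf, against 2.51 and 1.86 in root, 0.44 and 0.42 in flower, and 5.48 and 3.01 in fruit. The leaf level was higher (4.26 ± 0.31, adjusted p = 0.00044) and the flower level lower (-3.23 ± 0.42, adjusted p = 0.00336). CYP97B2 (comp18652_c0) had 13.5 and 46.1 TPM in leaf, against 3.71 and 4.78 in root, 1.05 and 1.24 in flower, and 4.07 and 3.60 in fruit (3.43 ± 0.36, adjusted p = 0.00134). These 3 leaf calls held without any single library. The levels within leaf did not keep a fixed ratio, since CYP97B2 was above CYP97C1 in replicate 2 and below it in replicate 1.

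The other 7 carotenoid pathway IDs were all higher in leaf too, and 4 were lower in root and 4 in flower. The shares of all IDs for these calls were 10.4%, 5.47% and 9.22%. PSY (comp21241_c0), the phytoene synthase that opens the pathway, averaged 258 ± 54.2 TPM in leaf, against 2.18 ± 1.91 in root, 0.86 ± 0.44 in flower and 19.8 ± 9.99 in fruit (SD, n = 2 each; 6.39 ± 0.47, adjusted p = 0.000455). VDE1 (comp13428_c0), the de-epoxidase of the xanthophyll cycle, averaged 95.1 ± 26.4 TPM in leaf and 0.77 ± 0.13 in root (leaf 5.07 ± 0.31, adjusted p = 0.000359). The green tissue markers were also highest in leaf, at 193800 and 155300 summed TPM. They summed to 198.7 and 527.6 TPM in root, 2081 and 2530 in flower, and 17820 and 4813 in fruit. No CYP97 member was called higher in fruit, and the part of green tissue in the result was not tested.

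**Figure D3:**
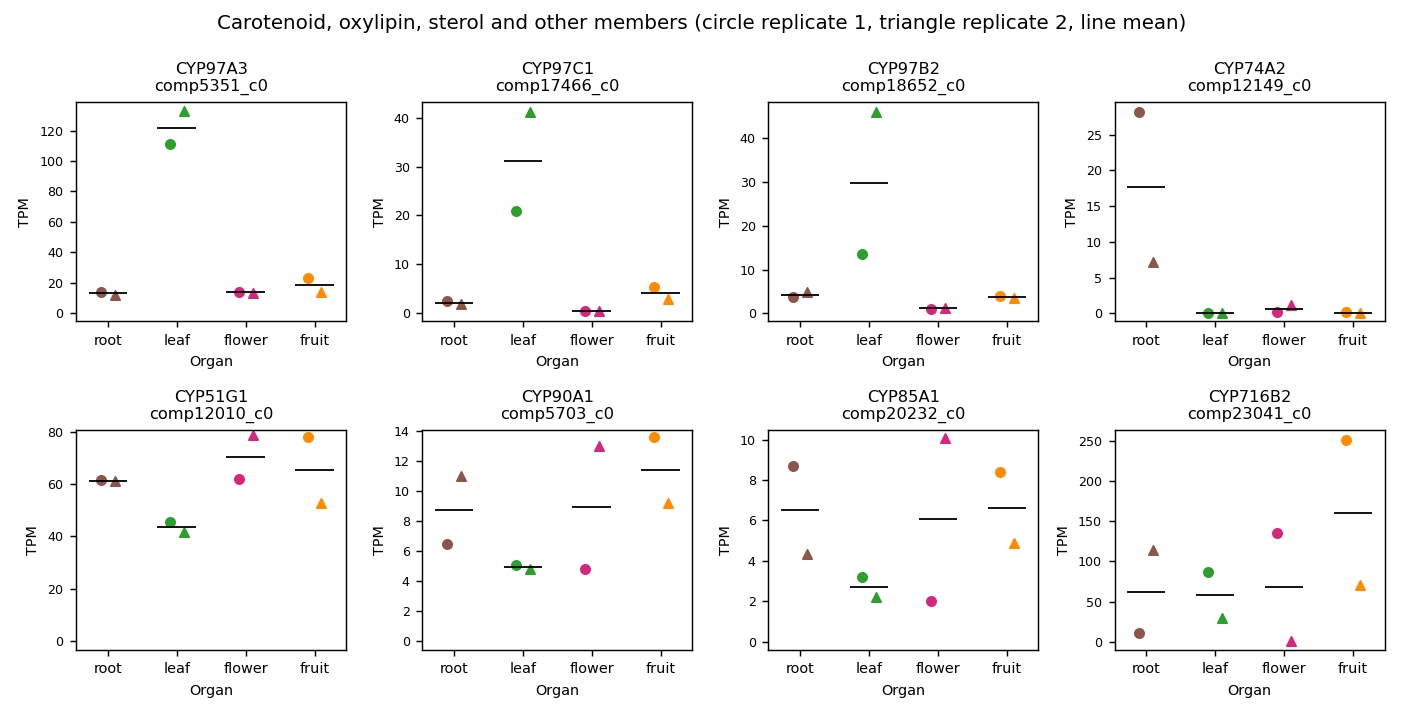
TPM of 8 members by organ, each on its own axis (circle replicate 1, triangle replicate 2, line the mean). CYP97A3, CYP97C1 and CYP97B2 stand above all other organs in leaf, CYP74A2 is at 28.2 and 7.19 TPM in root, CYP51G1, CYP90A1 and CYP85A1 overlap between organs, and CYP716B2 comp23041_c0 is at 135.0 and 0.95 TPM in the flower libraries.

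The abscisic acid class held 5 CYP707A members, the hydroxylases that start the breakdown of this stress and dormancy hormone. By mean TPM the 3 that differed among organs were each highest in another organ. CYP707A2 (comp21928_c0) had 30.4 and 37.3 TPM in flower, against 0.13 and 0.10 in leaf and 0 in all root and fruit libraries. Flower was at least 1790-fold above root and at least 1870-fold above fruit, on the floor of 3 counts over an organ, and 8.70 ± 0.48 above leaf in log2 units (adjusted p = 0.00279). CYP707A1 (comp19388_c0) had 31.5 and 13.1 TPM in fruit, against 1.28 and 2.87 in root, 0.09 and 0.39 in leaf, and 1.13 and 2.48 in flower. Fruit was higher than the mean of the others (4.30 ± 0.48, adjusted p = 0.0093) and leaf lower (-4.16 ± 0.70, adjusted p = 0.00933). The fruit call was lost without fruit replicate 1 (3.85, adjusted p = 0.057) and the leaf call without leaf replicate 1 (-3.53, adjusted p = 0.0589). CYP707A4 (comp12857_c0) had 2.06 and 9.26 TPM in leaf, against 1.23 and 1.33 in flower, 0.36 and 0.70 in fruit, and 0 in root. It was called higher in flower (3.20 ± 0.75, adjusted p = 0.0302), lost without any library but fruit replicate 2. Its call lower in root (adjusted p = 0.0152) was lost without either root replicate. Neither flower against leaf (-1.56 ± 0.90, adjusted p = 0.274) nor fruit against leaf (-3.41 ± 0.97, adjusted p = 0.0868) passed. Leaf was at least 150-fold above root, and the contrast of leaf with the mean of the others passed (adjusted p = 0.00745), but not without leaf replicate 2 (adjusted p = 0.0778).

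The remaining pair of CYP707A members was of short IDs. A second CYP707A4 ID (comp128796_c0, 565 bases) had 8.15 TPM in fruit replicate 2 and 0 in the 7 other libraries, and was not tested. The seed markers were high in the same library, at 6137 summed TPM against 86.3 in fruit replicate 1, and their part in this level was not tested. CYP707A7 (comp119795_c0) had 5.82 and 5.71 TPM in leaf, 5.91 and 0.81 in flower, 1.99 and 0 in fruit and 0 in root, and did not pass over the organs (adjusted p = 0.137). No CYP707A member was called higher in root, where 4 of the 5 were at 0.

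Of 21 other abscisic acid IDs tested, 6 were higher and 2 lower in flower (13.6% and 9.22% of all IDs were). In fruit 5 were higher (4.15%), in leaf 5 were lower (4.06%) and in root 1 was higher (7.05%). NCED dioxygenases, which cleave carotenoids in the committed step of abscisic acid synthesis, also had different organs on top. NCED3 (comp13815_c0) averaged 31.9 ± 9.77 TPM in flower, against 0.93 ± 1.08 in root, 2.88 ± 2.59 in leaf and 0.14 ± 0.16 in fruit (SD, n = 2 each; flower 6.16 ± 1.01, adjusted p = 0.00741). NCED6 (comp13607_c0) averaged 22.7 ± 7.91 TPM in fruit and at most 0.15 ± 0.17 in any other organ, with no count in leaf (adjusted p = 0.0102 for fruit). The 4 others called higher in fruit were ABI3 and ABI5, transcription factors of abscisic acid signalling, and the receptors PYL4 and PYL8 (comp7611_c0). ABI3 had 0.03 and 14.7 TPM in the fruit replicates and ABI5 3.45 and 34.5, so that both were high in the library with the high seed markers (86.3 and 6137 summed TPM), whose part in these calls was not tested. PYL4, at 103.0 and 28.4 TPM in fruit, and PYL8, at 116.6 and 73.9, were higher in the other fruit library. Over the alternatives run, the number higher in fruit ranged from 0 to 7 and in flower from 0 to 6.

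**Figure D4:**
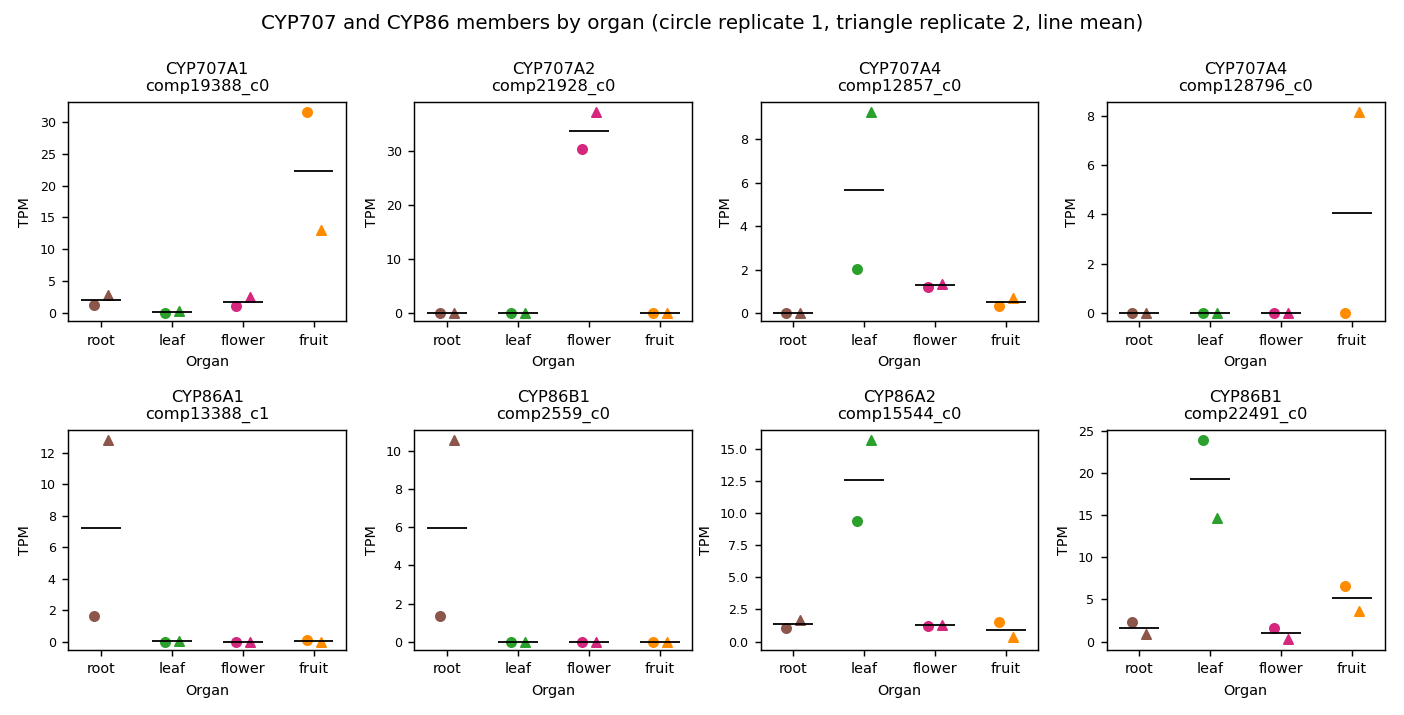
TPM of 4 CYP707A and 4 CYP86 members by organ, each on its own axis (circle replicate 1, triangle replicate 2, line the mean). CYP707A1 is highest in fruit, CYP707A2 in flower and CYP707A4 comp12857_c0 in leaf, while CYP86A1 comp13388_c1 and CYP86B1 comp2559_c0 are seen in root and CYP86A2 and CYP86B1 comp22491_c0 are highest in leaf.

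Brassinosteroids are steroid hormones of growth, and 19 members, all tested, fell in this class. Over the class 9 differed among organs, beside 29.3% of all IDs, and 2 to 14 did over the alternatives run. Of the 5 biosynthetic members of CYP85 and CYP90, 1 differed. CYP85A1 (comp20232_c0), the oxidase of the last steps, had 8.69 and 4.32 TPM in root, 8.39 and 4.89 in fruit, 3.19 and 2.23 in leaf, and 2.03 and 10.1 in flower, and did not pass over the organs (adjusted p = 0.447). CYP90A1 (comp5703_c0), which acts early on the steroid ring, had 6.51 and 11.02 TPM in root, 13.6 and 9.19 in fruit, 5.09 and 4.85 in leaf, and 4.85 and 13.02 in flower (adjusted p = 0.157). In both, the flower libraries spanned nearly the whole range of the other organs. CYP90B1 (comp2077_c0), the side-chain hydroxylase that limits the pathway's rate in Arabidopsis, had 0.70 and 11.2 TPM in fruit and at most 3.19 elsewhere, without passing (adjusted p = 0.404). CYP90D2 (comp140812_c0, 370 bases) had 6.77 and 1.65 TPM in root, 2.09 and 0.82 in flower, 0.09 and 0 in fruit, and 0 in leaf (adjusted p = 0.0454 over the organs). It was called higher in root and in flower, each beside a mean that includes the other, and both calls were lost without every library in turn (adjusted p 0.0692 to 0.306 in root and 0.0861 to 0.293 in flower).

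The 14 CYP734A members, named for the enzymes that inactivate brassinosteroids by hydroxylation, went different ways, and 8 of them differed among organs. CYP734A6 (comp20392_c0) was by far the most abundant, at 621.2 and 215.6 TPM in fruit, against 31.8 and 124.4 in root, 11.7 and 8.89 in leaf, and 1.91 and 2.10 in flower. It was higher in fruit (4.87 ± 0.46, adjusted p = 0.00685) and lower in flower (-4.38 ± 0.66, adjusted p = 0.00566). The fruit call held without any single library, and the flower call was lost without flower replicate 1 or 2 (highest adjusted p 0.0639). Fruit and root libraries did not overlap, but root against fruit did not pass (-2.62 ± 0.64, adjusted p = 0.0973), nor did root against the mean of the others (1.38 ± 0.47, adjusted p = 0.106).

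CYP734A1 (comp18123_c0) ran the other way. It had 5.07 and 30.0 TPM in root and 3.37 and 11.2 in flower, against 0.39 and 0.09 in leaf and 0.13 and 0.11 in fruit. Root was 6.80 ± 1.21 above fruit in log2 units (adjusted p = 0.0466), and fruit against flower stood at -6.46 ± 1.19 (adjusted p = 0.0185). It was called higher in flower (3.79 ± 0.70, adjusted p = 0.0108), lost without flower replicate 2 (2.88, adjusted p = 0.0864). Its call higher in root (4.25 ± 0.70, adjusted p = 0.0134) was lost without root replicate 2, fruit replicate 1 or fruit replicate 2 (highest adjusted p 0.0939), and its call lower in fruit without every library in turn (adjusted p 0.0543 to 0.268). CYP734A1 (comp20420_c0) had 34.2 and 19.2 TPM in fruit and 13.3 and 13.4 in leaf, against 0.92 and 6.05 in root and 0.13 and 0.40 in flower. It was lower in flower (-4.29 ± 0.89, adjusted p = 0.0164), lost without flower replicate 1 or 2 (highest adjusted p 0.13). It was called higher in fruit (2.97 ± 0.60, adjusted p = 0.0403) and in leaf (2.40 ± 0.61, adjusted p = 0.0423), both lost without either replicate of leaf, flower or fruit (highest adjusted p 0.205 and 0.208). CYP734A1 (comp14824_c0), at 79.2 and 16.6 TPM in root, 4.49 and 8.84 in fruit, 19.5 and 52.2 in leaf, and 12.1 and 15.4 in flower, did not pass (adjusted p = 0.185).

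Among the shorter CYP734A IDs, CYP734A2 (comp4104_c0) had 15.1 and 11.3 TPM in flower, against 2.27 and 5.92 in root, 2.18 and 0.74 in leaf, and 4.69 and 1.59 in fruit (3.05 ± 0.55, adjusted p = 0.0101; lost without flower replicate 1, adjusted p = 0.0885). CYP734A1 (comp1369_c0, 351 bases) had 18.3 and 4.74 TPM in leaf, against 1.03 and 0.48 in fruit and 0 in root and flower. Leaf was at least 64.6-fold above root and at least 53.1-fold above flower (adjusted p = 0.0101 against the mean of the others), and the call was lost without leaf replicate 1, fruit replicate 1 or fruit replicate 2 (highest adjusted p 0.152). Both fragments of component comp12872 were at 0 in root. CYP734A4 (comp12872_c0) had 6.69 and 1.80 TPM in flower, 0.66 and 5.44 in leaf, and 0.46 and 0.54 in fruit. CYP734A2 (comp12872_c1) had 26.6 and 12.2 TPM in flower, 4.23 and 14.8 in leaf, and 1.35 and 1.60 in fruit. Flower and leaf overlapped for both. CYP734A2 (comp97503_c0, 227 bases) split by replicate number and not by organ: root, leaf and flower had 16.3, 6.90 and 6.38 TPM in replicate 2 and 0 in replicate 1, and fruit had 9.33 and 9.10. CYP734A2 (comp340_c0) had 2.12 and 8.63 TPM in root and at most 1.62 elsewhere, and its root call (4.60 ± 1.06, adjusted p = 0.0356) was lost without every library in turn (adjusted p 0.0601 to 0.231). Neither it nor CYP734A1 comp13589_c0 and comp8321_c0, CYP734A6 comp76246_c0 and CYP90D1 comp424_c0 passed over the organs (adjusted p 0.0564 to 0.133).

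Of 15 other brassinosteroid IDs tested, 4 were higher and 2 lower in flower (13.6% and 9.22% of all IDs were). In root 2 were higher (7.05%), and in leaf 1 was lower (4.06%). Over the alternatives 0 to 4 were higher in flower and 1 to 4 higher in root. BRL1 (comp21398_c0), a brassinosteroid receptor, averaged 9.34 ± 0.39 TPM in root, against 0.72 ± 0.23 in leaf, 0.28 ± 0.04 in flower and 4.27 ± 3.15 in fruit (SD, n = 2 each; root 2.88 ± 0.37, adjusted p = 0.00703).

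CYP735A hydroxylates the side chain of cytokinins to make trans-zeatin, the form that roots are known to send to the shoot. CYP735A1 (comp20207_c0) had 78.2 and 300.0 TPM in root and 429.8 and 137.3 in fruit, against 3.84 and 4.09 in leaf and 0.58 and 0.05 in flower. Root and fruit overlapped each other and stood far above both other organs. It was lower in flower (-6.65 ± 1.20, adjusted p = 0.00998), which held without any single library. Fruit was higher (5.18 ± 0.73, adjusted p = 0.0173), lost without either leaf or either fruit replicate (highest adjusted p 0.0826). Root was also higher (4.14 ± 0.72, adjusted p = 0.0156), lost without root replicate 2, either leaf replicate or fruit replicate 2 (highest adjusted p 0.0842). Root stood 5.11 ± 1.14 above leaf (adjusted p = 0.0319) and 8.10 ± 1.32 above flower (adjusted p = 0.0104). The fragment CYP735A2 (comp129902_c0, 229 bases) had 11.4 and 3.04 TPM in root, 0 and 0.92 in fruit, and 0 in leaf and flower, and was not tested. Of 40 other cytokinin IDs tested, 10 were higher in leaf (10.4% of all IDs were). In flower 5 were higher (13.6%) and 7 lower (9.22%), and in root 3 were higher (7.05%) and 2 lower (5.47%). In fruit 2 were higher (4.15%) and 2 lower (1.55%). IPT3 (comp18447_c0), an isopentenyltransferase that makes the substrate of CYP735A, averaged 24.2 ± 3.47 TPM in leaf, against 2.08 ± 0.97 in root, 4.22 ± 3.05 in flower and 12.6 ± 10.6 in fruit (SD, n = 2 each; leaf 2.39 ± 0.53, adjusted p = 0.0275; root -2.89 ± 0.71, adjusted p = 0.043). The count higher in leaf ranged from 1 to 12 over the alternatives.

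The oxylipin class had 1 member. CYP74A2 (comp12149_c0) belongs to the allene oxide synthases, which turn fatty acid hydroperoxides into jasmonate precursors without using oxygen or a reductase. It had 28.2 and 7.19 TPM in root, against 0 in both leaf libraries, 0.13 and 1.22 in flower, and 0.17 and 0.03 in fruit. Both root libraries were above all others, and root was at least 872-fold above leaf (adjusted p = 0.0103 against the mean of the others, lost without root replicate 1 at 0.0543). Of 30 other oxylipin IDs tested, flower had 3 higher and 8 lower (13.6% and 9.22% of all IDs were). Root had 6 and 6 (7.05% and 5.47%), leaf 5 and 3 (10.4% and 4.06%), and fruit 3 and 1 (4.15% and 1.55%). Over the alternatives 3 to 13 were lower in flower, 0 to 8 higher and 0 to 10 lower in root, and 4 to 8 higher in leaf. The lipoxygenase LOX2.1 (comp26263_c0), which makes the hydroperoxides, averaged 84.6 ± 2.78 TPM in leaf and 1.78 ± 1.32 in root, and OPR3 (comp18827_c0), the reductase further down, averaged 85.1 ± 41.2 TPM in root and 21.0 ± 0.11 in leaf (SD, n = 2 each). Both passed, at 5.64 ± 0.49 in leaf (adjusted p = 0.000701) and 1.97 ± 0.39 in root (adjusted p = 0.0234).

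The fatty acid class held 10 members of CYP86, CYP94 and CYP704, whose known members hydroxylate the end of fatty acid chains, and 7 of the 8 tested differed among organs, beside 29.3% of all IDs. Over the alternatives run this count ranged from 0 to 7. The CYP86 IDs split between root and leaf, and the symbol CYP86B1 had IDs on both sides. CYP86A1 in Arabidopsis makes hydroxy acids for root suberin and CYP86B1 acts on very long chains there, while CYP86A2 serves the leaf cutin. CYP86A1 (comp13388_c1) had 1.60 and 12.8 TPM in root, against 0 and 0.04 in leaf, 0 in flower, and 0.07 and 0 in fruit. Root was at least 173-fold above flower (adjusted p = 0.0144 against the mean of the others), and the call was lost without root replicate 2 or either leaf replicate (highest adjusted p 0.0932). CYP86B1 (comp2559_c0, 555 bases) had 1.32 and 10.6 TPM in root and no count in any other library, at least 58.4-fold above flower, 74.4-fold above fruit and 76.6-fold above leaf. It passed in root (adjusted p = 0.0294) but not without any single library (adjusted p 0.0635 to 0.175). The untested fragments CYP86A1 (comp13388_c0) and CYP86B1 (comp105481_c0) had 0.92 and 16.95 TPM and 0.41 and 10.4 TPM in root, and at most 0.23 elsewhere. In all 4 of these IDs root replicate 2 was far above replicate 1.

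CYP86A2 (comp15544_c0) had 9.43 and 15.7 TPM in leaf, against 1.09 and 1.71 in root, 1.21 and 1.30 in flower, and 1.51 and 0.33 in fruit (3.46 ± 0.42, adjusted p = 0.00232), and held without any single library. A longer CYP86B1 (comp22491_c0, 1566 bases) had 23.9 and 14.7 TPM in leaf, against 2.32 and 0.89 in root, 1.57 and 0.36 in flower, and 6.64 and 3.66 in fruit. Leaf was higher (3.27 ± 0.63, adjusted p = 0.0159), lost without either leaf or either fruit replicate (highest adjusted p 0.148). Root stood below leaf for both, by -3.53 ± 0.62 for CYP86A2 (adjusted p = 0.0141) and -3.89 ± 0.95 for this CYP86B1 (adjusted p = 0.0431). The root-detected CYP86B1 comp2559_c0 did not pass the contrast of root with leaf (adjusted p = 0.0769).

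The pair on component comp11707 was highest in flower. CYP94A1 (comp11707_c0), whose namesake in vetch hydroxylates fatty acids, had 9.94 and 3.75 TPM in flower, against 0.04 and 0.84 in root, 1.31 and 1.98 in leaf, and 0.07 and 0 in fruit. Flower was higher (5.30 ± 0.96, adjusted p = 0.0101), lost without flower replicate 1 (adjusted p = 0.0929). CYP704C1 (comp11707_c1) had 8.91 and 6.74 TPM in flower, against 0.67 and 0.85 in root, 2.26 and 1.45 in leaf, and 0.41 and 0 in fruit (4.29 ± 0.82, adjusted p = 0.0123; lost without leaf replicate 2 or flower replicate 1, highest adjusted p 0.0907). A longer CYP704C1 (comp19535_c0) was present throughout, at 40.3 and 32.2 TPM in leaf, against 18.9 and 15.8 in root, 15.1 and 12.48 in flower, and 14.3 and 9.52 in fruit. Its leaf difference was modest (1.39 ± 0.27, adjusted p = 0.0164) and was lost without either leaf replicate (highest adjusted p 0.173). CYP94A1 (comp22921_c0), at 5.07 and 25.0 TPM in root, 36.3 and 17.5 in fruit, 10.97 and 19.6 in leaf, and 9.31 and 13.6 in flower, did not pass (adjusted p = 0.503). No fatty acid member was called higher in fruit.

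Of 52 other cutin, suberin and wax IDs tested, 25 were higher and 2 lower in flower, 19 higher and 2 lower in leaf, 6 higher and 16 lower in root, and 2 higher and 11 lower in fruit. The shares of all IDs given above for these calls lie between 1.55% and 13.6%. Over the alternatives 16 to 25 were higher in flower, 9 to 21 higher in leaf, 1 to 8 higher and 5 to 22 lower in root, and 1 to 17 lower in fruit. The glycerol acyltransferase GPAT6 (comp16522_c0), which joins hydroxy acids to glycerol for cutin, averaged 172 ± 45.5 TPM in flower, against 8.30 ± 6.15 in root, 41.2 ± 2.23 in leaf and 0.30 ± 0.28 in fruit (SD, n = 2 each; flower 5.97 ± 0.47, adjusted p = 0.000862). CUT1 (comp12348_c0), a wax elongase, averaged 0.14 ± 0.13 TPM in root and 206 ± 19.2 in leaf (root -8.93 ± 0.95, adjusted p = 0.00414).

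The CYP72, CYP87 and CYP716 members, 19 in all, held 8 of the 12 calls higher in fruit and 7 of the 15 calls higher in root. Of them 14 differed among organs, beside 29.3% of all IDs, and none was called lower in root or higher in flower. They also held 6 calls lower in flower, and 3 higher and 3 lower in leaf. Over the alternatives run, 7 to 17 differed, 3 to 11 were higher in fruit, 3 to 8 higher in root and 3 to 11 lower in flower. CYP72A1 (comp22391_c0) was the most abundant member, at 4167 and 1820 TPM in fruit, against 218.9 and 1608 in root, 103.0 and 112.3 in leaf, and 30.7 and 16.5 in flower. CYP72A1 in Catharanthus is secologanin synthase, an enzyme of iridoid synthesis, while the deposited KEGG text calls this ID an ent-kaurene oxidase. Fruit was higher (4.21 ± 0.63, adjusted p = 0.02), lost without either replicate of leaf, flower or fruit (highest adjusted p 0.088). Flower was lower (-4.05 ± 0.89, adjusted p = 0.0196), lost without either replicate of leaf or flower (highest adjusted p 0.12). The root replicates lay far apart, and root replicate 2 came close to fruit replicate 2.

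CYP72A1 (comp21547_c0) had 33.3 and 142.9 TPM in root and 102.6 and 36.9 in fruit, against 2.16 and 2.58 in leaf and 0.87 and 0.85 in flower. It was higher in root (3.52 ± 0.43, adjusted p = 0.00626), which held without any single library, and in fruit (3.35 ± 0.43, adjusted p = 0.0134), lost without either leaf or flower replicate or fruit replicate 1 (highest adjusted p 0.0754). Root and fruit differed by 0.13 ± 0.58 (adjusted p = 0.952), which did not pass. CYP72C1 (comp10650_c0), whose Arabidopsis namesake alters brassinosteroid levels, had 12.4 and 31.1 TPM in fruit, against 0.20 and 1.12 in root, 0 in leaf, and 0.30 and 0.15 in flower. Fruit was at least 1210-fold above leaf (adjusted p = 0.0102 against the mean of the others), and the call was lost without either flower replicate or fruit replicate 2 (highest adjusted p 0.0589). It was higher in the fruit library with the high seed markers, and their part in the result was not tested. The shorter CYP72A1 IDs comp17433_c0 and comp2693_c0 were highest in leaf, at 6.09 and 7.67 TPM and at 9.04 and 2.02 TPM, against at most 1.28 and 0.20 TPM in the other organs, and both leaf calls (adjusted p = 0.0119 and 0.0191) were lost without leaf replicate 1 or either fruit replicate, and also without leaf replicate 2 for comp17433_c0 and flower replicate 2 for comp2693_c0 (highest adjusted p 0.0862 and 0.257). CYP72A1 (comp21542_c0), at 29.1 and 22.9 TPM in leaf, 8.50 and 12.54 in fruit, 1.09 and 0.97 in root, and 5.19 and 0.04 in flower, did not pass (adjusted p = 0.169).

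The CYP87A3 symbol, from a rice gene, covered 5 IDs, of which 4 were called higher in root and 2 in fruit. CYP87A3 (comp6109_c0) had 36.1 and 124.9 TPM in root and 27.3 and 26.9 in fruit, against 0.72 and 0.62 in leaf and 0 in flower. Root was at least 3170-fold and fruit at least 1190-fold above flower, and root was 6.43 ± 0.66 above leaf in log2 units (adjusted p = 0.00379). Its calls higher in root and in fruit and lower in flower each held without any single library. CYP87A3 (comp19106_c0) had 95.1 and 59.7 TPM in fruit, against 0.05 and 0.70 in root, 3.30 and 2.63 in leaf, and 0 and 0.05 in flower (7.91 ± 0.77, adjusted p = 0.00685). CYP87A3 (comp11710_c0) had 5.97 and 7.63 TPM in root, against 0.08 and 0.07 in fruit and 0 in leaf and flower (adjusted p = 0.00371 for root). These last 2 lay on opposite sides of the root and fruit contrast, at -7.98 ± 1.20 (adjusted p = 0.0319) for comp19106_c0 and 6.29 ± 0.78 (adjusted p = 0.0392) for comp11710_c0. The shorter comp9474_c0 and comp10331_c0 had 17.7 and 6.27 TPM and 9.11 and 6.63 TPM in root, and at most 0.43 and 0.37 in the other organs. Their root calls (adjusted p = 0.0311 and 0.0353) were lost without any root, leaf or flower library for comp9474_c0 (highest adjusted p 0.156) and without any of the 8 libraries for comp10331_c0 (highest adjusted p 0.182).

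All 6 CYP716 members carried the symbol CYP716B2, and CYP716 enzymes of other plants oxidise triterpenes. CYP716B2 (comp18132_c0) had 451.6 and 253.3 TPM in fruit, against 29.8 and 104.2 in root, 26.6 and 43.8 in leaf, and 1.92 and 2.11 in flower. Fruit was higher (4.17 ± 0.38, adjusted p = 0.00633) and flower lower (-4.81 ± 0.56, adjusted p = 0.00246). CYP716B2 (comp21634_c0) had 1073 and 287.4 TPM in fruit, against 79.5 and 196.5 in root, 96.6 and 38.2 in leaf, and 36.5 and 15.5 in flower. Its fruit call (3.09 ± 0.59, adjusted p = 0.035) was lost without every library in turn (adjusted p 0.0554 to 0.221). CYP716B2 (comp23075_c0) was also higher in fruit, at 50.5 and 24.0 TPM, against 0.72 and 6.25 in root, 20.6 and 9.66 in leaf, and 0.04 and 0.05 in flower. Neither fruit against leaf (1.04 ± 0.83, adjusted p = 0.499) nor root against fruit (-3.717 ± 0.915, adjusted p = 0.0974) passed. This ID was called higher in leaf too (3.20 ± 0.65, adjusted p = 0.02), lost without leaf replicate 1 or either flower or fruit replicate. It was lower in flower (-7.41 ± 1.15, adjusted p = 0.00615), lost without flower replicate 1 or 2 (highest adjusted p 0.0723), and its fruit call (4.58 ± 0.65, adjusted p = 0.0175) was lost without either replicate of leaf, flower or fruit (highest adjusted p 0.0833). CYP716B2 (comp10123_c0) had 6.65 and 7.47 TPM in root and 7.53 and 2.62 in fruit, against at most 0.73 in leaf and flower. Its root call (2.35 ± 0.45, adjusted p = 0.0212) was lost without either root or leaf replicate, flower replicate 1 or fruit replicate 2 (highest adjusted p 0.124). CYP716B2 comp23041_c0, with 135.0 and 0.95 TPM in the flower libraries, and comp13963_c0 did not pass over the organs (adjusted p = 0.792 and 0.234).

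**Figure D5:**
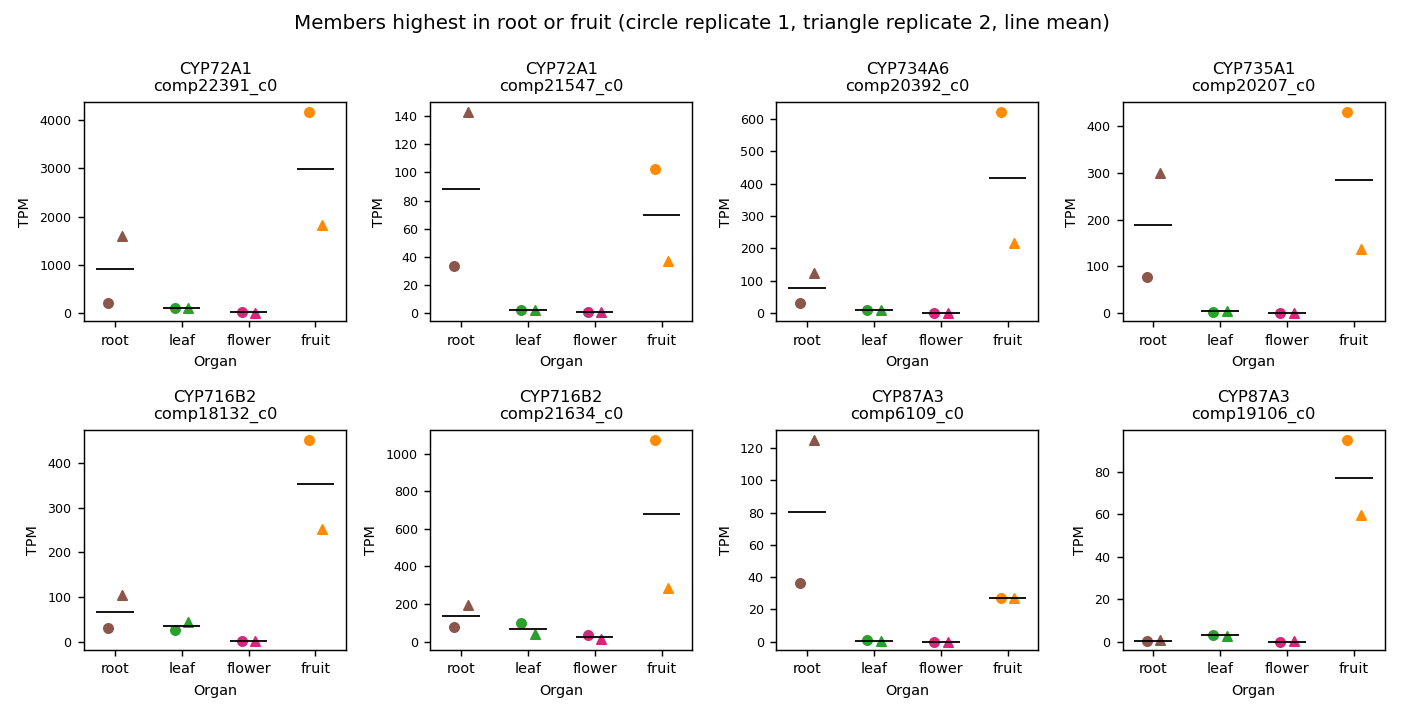
TPM of 8 members that are highest in root or fruit, by organ, each on its own axis (circle replicate 1, triangle replicate 2, line the mean). In all 8 root replicate 2 lies above root replicate 1 and fruit replicate 1 above fruit replicate 2, and all 8 are lowest in flower by mean TPM.

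Of the 38 members that differed, 11 (28.9%) had their highest mean TPM in root or fruit and their lowest in flower, beside 20.5% of all IDs that differed. Both shares rank organs by TPM, which understates flower relative to the scaled fit. The replicates of root and of fruit split the same way for members of unrelated function, as for CYP735A1 (78.2 and 300.0 TPM in root, 429.8 and 137.3 in fruit) and CYP72A1 comp21547_c0 (33.3 and 142.9, and 102.6 and 36.9). The share of TAR1-A counts was 9.67% and 18.9% in the root replicates and 7.53% and 11.6% in those of fruit, and its part in the split was not tested. The electron donors of P450s were examined beside them. Of 7 tested, 3 were higher in fruit, 1 was higher in flower and 1 lower in root, beside 4.15%, 13.6% and 5.47% of all IDs. The P450 reductase CPR (comp22916_c0) averaged 231 ± 166 TPM in fruit, against 21.4 ± 7.71 in root, 4.82 ± 4.52 in leaf and 8.55 ± 4.34 in flower (SD, n = 2 each; fruit 4.43 ± 0.65, adjusted p = 0.0187). The number higher in fruit ranged from 0 to 3 over the alternatives.

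A group of 3 short IDs shared another pattern. CYP734A6 (comp313_c0) had 8.29 and 1.68 TPM in root and 3.74 and 7.58 in fruit, against 0 in leaf and flower. CYP72A1 (comp13534_c0) had 7.86 and 1.44 TPM in root and 3.81 and 8.33 in fruit, against 0 in leaf and flower. CYP72A1 (comp9352_c0) had 18.4 and 1.95 TPM in root and 12.2 and 9.69 in fruit, against 0 in leaf and 0.15 and 0 in flower. In all of them root replicate 1 was the higher root library. The root call of comp313_c0 (5.57 ± 1.21, adjusted p = 0.0494) was lost without every library in turn. That of comp9352_c0 (4.84 ± 1.13, adjusted p = 0.0457) was lost without any library but root replicate 2. CYP72A1 comp13534_c0 did not pass over the organs (adjusted p = 0.0513). The 3 IDs are 313 to 391 bases long, and whether they are pieces of the same transcripts cannot be read from the files.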

How the data were processed

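The deposited table covers 8 libraries and, per the file headers, holds the authors' estimated counts, TPM and RPKM per assembled ID, with lengths. Deposited RPKM were not used. The labels name no assembler, counting tool or strand setting (not given in the sources used here). Neither sequences nor a genome entered the work. The 60 members were matched by symbol, and all per-sample columns matched a library (0 left over).

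Deposited estimated counts were rounded and tested with edgeR 4.0.16 (quasi-likelihood, limma 3.58.1, R 4.3.3), TMM scaling and filterByExpr by organ, which kept 27939 of 30177 IDs. The fit left 4 residual degrees of freedom, with a common coefficient of variation of 0.667. In simulated data 26% to 33% of changes of 2 log2 units and 75% to 85% of changes of 4 were recovered. Changes were placed only in IDs above a minimum mean count, so recovery at lower counts, as in some short members, was not measured. In each simulation 100 IDs were changed at each size in a single organ and the rest were flat. In the data 29.3% of all IDs were called different among organs. The cutoff set by adjusted p therefore differs, and these rates do not measure recovery in the data. Where an organ had 0 counts, a bound on a floor of 3 counts replaced the fold. It covers counting error only.

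Named members were, per family, the highest mean TPM and the lowest p over the organs, and per organ up to 5 enriched members with the largest fold, at least 1 TPM and no overlap. Other members, and the pathway genes named, were picked after their values were seen. Members and lists were chosen with earlier results of these data known. Alternatives were other scaling, no filter, DESeq2 1.42.0, limma on log2 TPM, a replicate block and leaving out each library.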

Additional observations from a re-analysis of the deposited data

How the results depend on the processing

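The direction of all 68 calls held under the 17 alternatives run. The uncalled contrast of CYP85A1 in fruit, at 0.22, ranged from -0.01 to 0.68 when single libraries were left out and was below 0 without flower replicate 1. Of the calls, 45 were kept under the 9 alternatives that keep every library and 16 under all 17. The 1 member called lower in fruit became 0 with no filter on low counts, with limma on log2(TPM + 1) without a filter and with the replicate block. DESeq2 called 11 members lower in root (3 in the edgeR fit), 13 lower in leaf (5) and 7 lower in fruit (1). The shares of all IDs were 10.1%, 9.02% and 5.3% (5.47%, 4.06% and 1.55% in the edgeR fit). With limma on log2(TPM + 0.1), 7 were lower in root, 5 higher in flower (9) and 20 lower in flower (11). The shares of all IDs there were 4.59%, 7.49% and 24.3% (5.47%, 13.6% and 9.22% in the edgeR fit). Leaving out each library in turn gave 16 to 31 members that differ among organs (38), 5 to 8 higher and 1 to 3 lower in root, 5 to 13 higher and 0 to 5 lower in leaf, 2 to 9 higher and 5 to 11 lower in flower, 5 to 11 higher and 0 lower in fruit, and 17 to 29 organ-enriched members (31). In such a fit the lone library of an organ is assumed to vary like the others, and the shares of all IDs called fell too. CYP51G1 in flower passed at 1.02 with RLE scaling, 1.02 with DESeq2, 1.01 with the block and 1.06 without root replicate 1. The labels do not say what a replicate number shares. Deviations of same-numbered libraries correlated at 0.384 to 0.489 among root, leaf and flower and at -0.156 to 0.101 with fruit, so the number was not used as a pairing over all organs. With the replicate block 33 members differed among organs, with 10 higher and 2 lower in root, 12 and 0 in fruit, 12 and 4 in leaf, 12 and 12 in flower, and 30 were organ-enriched. With 2 libraries per organ, short members and those with an organ at 0 rest on few counts, and the causes of these shifts were not tested.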
